A study of Arabidopsis thaliana with 20 samples.

Results

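Seedlings carrying the mutation pol2a-2 were compared with wild-type (WT) seedlings of Arabidopsis thaliana by sequencing of polyadenylated RNA. The comparison rests on 4 of the 20 libraries of the study, 2 titled pol2a-2 and 2 titled WT, chosen by their titles. The gene POL2A codes for the subunit of DNA polymerase epsilon that makes DNA. The study asked how this polymerase acts with SUVH2 and SUVH9, a pair of proteins of RNA-directed DNA methylation, in gene silencing. The pol2a-2 seedlings and the WT seedlings were both 20 days old, received no treatment named in the labels, and grew at 20 °C with 16 h of light and 8 h of dark. Each replicate pooled 4 to 5 plants, so values are means over plants and over all tissues of the seedling. The genotype field of the pol2a-2 libraries reads pol2a-1, and the sources used here do not give the base change of either allele. Beside these, 2 pol2a-1 seedling libraries and 4 meiocyte libraries (2 pol2a-2 and 2 WT) are used below for comparison. The other 4 seedling libraries, of suvh2suvh9 and of the triple mutant pol2a-1suvh2suvh9, entered the fit and are not described. All 6 WT, pol2a-1 and pol2a-2 seedling libraries had 2.11% to 2.42% of their counts on chloroplast genes, against 0.0215% to 0.0443% in those 4.

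DNA polymerase epsilon synthesises the leading strand at the replication fork, and its catalytic subunit also takes part in the S-phase checkpoint. When replication forks stall or DNA breaks, the kinases ATR and ATM activate SOG1, the plant transcription factor that does the work p53 does in animals. SOG1 switches on inhibitors of cyclin-dependent kinases, repair enzymes and further NAC transcription factors. In plants, mutants of replicative polymerases are also known for altered chromatin silencing and for early flowering.

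SOG1 binds the palindrome CTT and AAG with 7 bases of any kind between them, which reads the same on both strands. It was searched from 250 bases before to 50 bases after each gene start in the reference sequence TAIR10.1. Of the 5 members of the DNA damage response list that both rose in pol2a-2 seedlings and held the motif 4 are shown, since this list held the most rises of any list. Each line gives 1 match with 20 bases on either side, 5′ to 3′ on the strand of the gene, with the 13 motif bases in capitals.
SMR5, chr1:2305095-2305147, minus strand, motif starting 96 bases before the gene start: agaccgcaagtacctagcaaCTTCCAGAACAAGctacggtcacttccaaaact
SMR7, chr3:10231578-10231630, minus strand, motif starting 43 bases before the gene start: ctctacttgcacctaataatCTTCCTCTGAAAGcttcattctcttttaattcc
PARP2, chr4:1049650-1049702, plus strand, motif starting 96 bases before the gene start: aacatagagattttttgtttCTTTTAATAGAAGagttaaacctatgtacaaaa
NAC044, chr3:228990-229042, plus strand, motif starting 65 bases before the gene start: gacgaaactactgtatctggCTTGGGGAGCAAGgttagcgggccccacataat

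SMR5 and SMR7 each held a second match in the window. A match is a description of these letters and does not show that SOG1 binds there. Of 20420 tested nuclear genes, 2260 (11.1%) held at least 1 match in the window. The share was 46 of 361 (12.7%) among genes that rose in pol2a-2 seedlings and 13 of 193 (6.74%) among genes that fell. Within the DNA damage response list it was 5 of 15 (33.3%) among members that rose and 4 of 17 (23.5%) among members that did not pass the test.

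The pol2a-2 libraries held 14.65 and 23.62 and the WT libraries 34.5 and 26.8 counts in units of 1e6, within a range of 11.9 to 34.5 over the 10 seedling libraries. Levels are given as CPM, counts per 1e6 counts of a library, in replicates 1 and 2. Differences are log2 fold changes of pol2a-2 over WT with their standard error, from edgeR's quasi-likelihood test on the 10 seedling libraries, where TMM factors rescaled the libraries. A gene is said to have risen or fallen when its Benjamini-Hochberg adjusted p over all 22297 features was under 0.05. Nothing in the labels says that the replicates came from separate sowings, so the p-values reflect the spread between 2 pools of plants in each group and no more. In bulk RNA, fewer cells of a type and less RNA per cell cannot be told apart.

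POL2A itself (AT1G08260, chr1:2588854-2606892, plus strand) was looked at first, since the labels name its mutation. It stood at 30.6 and 65.9 CPM in pol2a-2 seedlings, against 47.2 and 41.1 CPM in WT seedlings. The pol2a-2 libraries lay on either side of both WT libraries, and the log2 fold change was 0.04 ± 0.26 (adjusted p = 0.947, edgeR). Without replicate 2 of pol2a-2 it was -0.55 (adjusted p = 0.0285), and the low library is the one in which long genes as a class had low levels, described further on. The RNA level of POL2A thus neither sets the pol2a-2 libraries apart nor goes against their titles.

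Of 20549 genes tested, 361 rose in pol2a-2 seedlings (1.76%) and 193 fell (0.939%). In all of them both pol2a-2 libraries lay beyond both WT libraries, which was also so for 32.1% of all tested genes on the higher side and 18.5% on the lower side. At least a 2-fold change was reached by 219 of the risen and 97 of the fallen genes. The counts of calls moved strongly with single libraries. They were 31 higher and 7 lower without WT replicate 1, 81 and 31 without WT replicate 2, 1691 and 2302 without pol2a-2 replicate 2, and 186 and 91, or 192 and 93, without replicate 1 or 2 of the triple mutant. As shares of all genes tested, the calls were 0.148% higher and 0.0335% lower without WT replicate 1 and 0.387% and 0.148% without WT replicate 2. They were 1.74% and 1.12% without pol2a-2 replicate 1 and 8.02% and 10.9% without pol2a-2 replicate 2. All 554 called genes kept their direction in each of these fits. This could hardly be otherwise, since both pol2a-2 libraries lay beyond both WT libraries in every called gene, so it does not measure stability.

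In number, the DNA damage response held more rises than any other list. Its share of 46.9% lay below those of G2 and mitosis (64.7%), the spindle checkpoint (57.1%) and A- and B-type cyclins (47.4%). Of the 32 genes on this list, 15 rose and 0 fell in pol2a-2 seedlings, against 1.76% of all genes called higher, and the median log2 fold change of the list was 1.21, against -0.01 over all tested genes. The 15 included cell cycle inhibitors, NAC factors, a cyclin and genes of DNA repair. The kinases ATM and ATR, and SOG1, which they activate by phosphorylation, were not among them. SOG1 stood at 12.1 and 11.6 CPM in pol2a-2 seedlings and at 10.1 and 9.80 CPM in WT seedlings, with a log2 fold change of 0.17 ± 0.17 (adjusted p = 0.573, edgeR). ATM stood at 11.2 and 39.7 CPM in pol2a-2 seedlings and at 37.0 and 32.7 CPM in WT seedlings, so that the groups overlapped.

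Inhibitors of cyclin-dependent kinases were among the rises. SMR7 (AT3G27630), an inhibitor of the SIAMESE-RELATED family that is induced by SOG1, stood at 23.62 and 20.49 CPM in pol2a-2 seedlings, against 0.261 and 0.112 CPM in WT seedlings. It was near absent from both WT libraries and its log2 fold change was 6.71 ± 0.84 (adjusted p = 0.00429, edgeR). SMR5, of the same family, stood at 5.05 and 3.13 CPM in pol2a-2 seedlings, against 0.261 and 0.447 CPM in WT seedlings, a log2 fold change of 3.45 ± 0.71 (adjusted p = 0.0371). All exon bases of SMR5 overlap another annotated gene, and the library kit does not record the strand, so its reads cannot be separated from those of that gene. SMR4 stood at 1.57 and 2.62 CPM in pol2a-2 seedlings and 0.581 and 1.04 CPM in WT seedlings and did not pass the test (adjusted p = 0.162).

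NAC044 and NAC085 are NAC transcription factors related to SOG1 that hold cells before mitosis after DNA damage. NAC044 stood at 11.4 and 13.1 CPM in pol2a-2 seedlings, against 0.668 and 0.634 CPM in WT seedlings. Both pol2a-2 libraries lay far above both WT libraries, with a log2 fold change of 4.14 ± 0.37 (adjusted p = 0.000872, edgeR). NAC085 stood at 4.10 and 3.18 CPM in pol2a-2 seedlings and had 0 counts in both WT libraries, at least 72.1-fold higher against a floor of 3 counts over the WT group (adjusted p = 0.00409). CYCB1;1, a mitotic cyclin that SOG1 induces after damage, stood at 26.1 and 23.7 CPM in pol2a-2 seedlings, against 4.41 and 4.66 CPM in WT seedlings. Its log2 fold change was 2.38 ± 0.21 (adjusted p = 0.000872).

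Genes of DNA repair and of nucleotide supply rose beside them. XRI1 (AT5G48720), named for its induction by X-rays and needed for meiotic DNA repair, stood at 61.8 and 61.4 CPM in pol2a-2 seedlings, against 8.39 and 7.16 CPM in WT seedlings, a log2 fold change of 2.91 ± 0.15 (adjusted p = 3.55e-05, edgeR). TSO2, a small subunit of ribonucleotide reductase, which makes deoxynucleotides, stood at 439 and 392 CPM in pol2a-2 seedlings and at 55.2 and 59.4 CPM in WT seedlings (2.78 ± 0.21, adjusted p = 0.000455). In both genes the replicates of a group lay close together and the groups far apart.

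In 4 further repair genes the pol2a-2 replicates lay further apart, with replicate 2 the higher in each. PARP2, a poly(ADP-ribose) polymerase that marks DNA breaks, stood at 34.3 and 68.9 CPM in pol2a-2 seedlings, against 4.35 and 5.48 CPM in WT seedlings (log2 fold change 3.31 ± 0.56, adjusted p = 0.0185, edgeR). GMI1, an ATM-dependent gene of recombination repair, stood at 25.2 and 68.1 CPM in pol2a-2 seedlings, against 4.15 and 6.23 CPM in WT seedlings (3.08 ± 0.43, adjusted p = 0.00760). BRCA1 stood at 25.5 and 47.9 CPM in pol2a-2 seedlings, against 8.39 and 10.9 CPM in WT seedlings (1.84 ± 0.33, adjusted p = 0.0231). The fourth was RPA1E, a large subunit of the single-strand binding protein RPA, at 8.40 and 16.3 CPM in pol2a-2 seedlings, against 1.94 and 1.79 CPM in WT seedlings (2.64 ± 0.34, adjusted p = 0.00486). The lower library of each pair still exceeded both WT libraries.

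MND1, TRFL3 and TRFL10 also rose. MND1, a partner of the meiotic recombinase that is also induced by damage, stood at 9.42 and 10.3 CPM in pol2a-2 seedlings and at 2.79 and 3.06 CPM in WT seedlings (1.68 ± 0.21, adjusted p = 0.00429, edgeR). The break-processing and end-joining genes KU70, KU80, LIG4, MRE11, NBS1 and RAD50 did not pass the test, with log2 fold changes of -0.59 to -0.01. KU70 stood at 17 CPM in both pol2a-2 libraries, against 16 and 17 CPM in WT seedlings.

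The 15 calls depended on the WT libraries. Without WT replicate 1 only TSO2, XRI1, NAC044 and CYCB1;1 remained called, the other 11 reaching adjusted p of 0.0505 to 0.289, and without WT replicate 2 there were 7 calls. Without pol2a-2 replicate 1 all but SMR5 remained, with PARP1 and RAD17 beside them. Without pol2a-2 replicate 2 all 15 remained and ATM, RAD50, LIG4 and TEB were called lower. In the fit restricted to the 6 WT, pol2a-1 and pol2a-2 libraries, all 15 were called. With pol2a-1 and pol2a-2 joined as 1 genotype, as the genotype field has them, 0 were called by edgeR, although 15 members were higher and 1 was lower at an unadjusted p under 0.05.

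**Figure D1:**
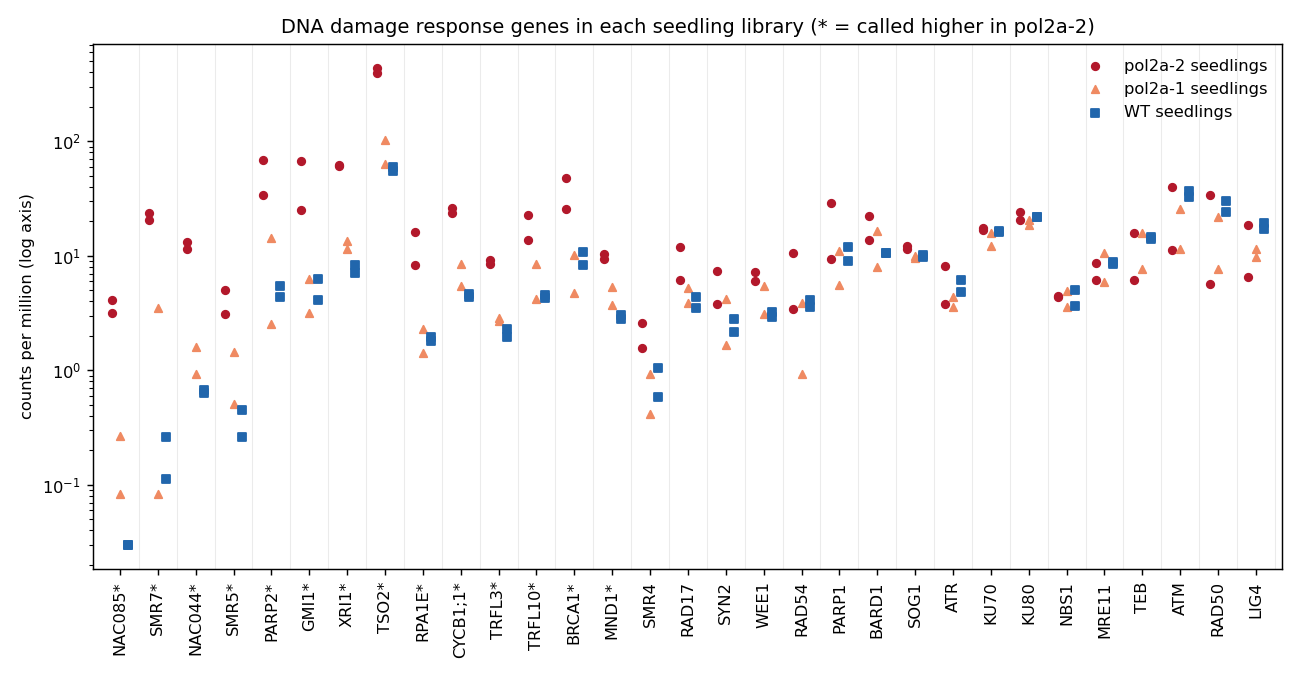
CPM on a log axis of members of the DNA damage response list in each of the 2 pol2a-2, 2 pol2a-1 and 2 WT seedling libraries, 1 point per library, with values of 0 drawn at 0.03. SMR7 stands at 23.62 and 20.49 CPM in pol2a-2, at 3.51 and 0.0840 in pol2a-1 and at 0.261 and 0.112 in WT, while SOG1 stands at a like level in all libraries.

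On the list of G2 and mitosis, 11 of 17 genes rose and 0 fell in pol2a-2 seedlings, against 1.76% of all genes called higher. All 17 had a positive log2 fold change, and the median was 1.12. CDKB1;1, a mitotic cyclin-dependent kinase, stood at 17.1 and 16.2 CPM in pol2a-2 seedlings, against 4.67 and 4.40 CPM in WT seedlings (1.79 ± 0.17, adjusted p = 0.00108, edgeR). CYCA1;1, an A-type cyclin, stood at 34.8 and 31.0 CPM in pol2a-2 seedlings, against 10.5 and 12.2 CPM in WT seedlings (1.46 ± 0.15, adjusted p = 0.00203). In both genes the groups were well apart and the replicates close.

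CDKB2;1 stood at 34.4 and 49.1 CPM in pol2a-2 seedlings and at 13.5 and 14.9 CPM in WT seedlings (log2 fold change 1.48 ± 0.18, adjusted p = 0.00350, edgeR). KN (KNOLLE), the syntaxin of the forming cell plate, stood at 71.5 and 63.3 CPM in pol2a-2 seedlings and at 25.3 and 30.0 CPM in WT seedlings (1.21 ± 0.15, adjusted p = 0.00384). Of its exon bases 33.5% overlap another gene. The aurora kinases AUR1 and AUR2 rose with log2 fold changes of 1.26 and 1.11 (19.2% and 36.9% of their exon bases overlap other genes), and CDC20.1, an activator of the anaphase-promoting complex, with 0.87. CYCD3;1, a cyclin of the G1 phase, stood at 31.5 and 34.2 CPM in pol2a-2 seedlings and at 25.4 and 24.8 CPM in WT seedlings and did not pass the test (0.31 ± 0.13, adjusted p = 0.225).

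Of the 11 calls only 1 remained without WT replicate 1 and 7 without WT replicate 2, while all 11 remained without either pol2a-2 library. Lists of cyclins and of the spindle checkpoint were added after values had been seen. Among A- and B-type cyclins 9 of 19 rose, against 1.76% of all genes, with 18 of 19 log2 fold changes positive. Without WT replicate 1 there was 1 cyclin call, without WT replicate 2 there were 2, and with all 20 libraries in the fit 2. Of the spindle checkpoint 4 of 7 rose, MAD2, BUBR1, BUB3.1 and BUB3.2, and 1 call was made without WT replicate 1. MAD2 stood at 27.6 and 27.3 CPM in pol2a-2 seedlings, against 8.39 and 10.3 CPM in WT seedlings (1.48 ± 0.15, adjusted p = 0.00178, edgeR).

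Of 28 tested genes of the replication machinery 3 rose (10.7%) and 0 fell, against 1.76% of all genes called higher. The median log2 fold change was 0.27, and 12 members were higher and 0 lower when an unadjusted p under 0.05 was taken. TK1a, a thymidine kinase that salvages a DNA precursor, stood at 156 and 89.7 CPM in pol2a-2 seedlings, against 12.8 and 12.5 CPM in WT seedlings (3.21 ± 0.28, adjusted p = 0.000842, edgeR). PCNA1 and PCNA2, the sliding clamps, rose with log2 fold changes of 0.88 and 0.78. DPB2, the second subunit of polymerase epsilon, stood at 4.03 and 5.25 CPM in pol2a-2 seedlings and at 4.85 and 4.44 CPM in WT seedlings (-0.08 ± 0.20, adjusted p = 0.853). The 6 tested subunits of the MCM helicase, MCM2 to MCM6 and PRL, lay between -0.20 and 0.48 and did not pass the test. TK1a was the 1 call of 3 that remained without either WT library.

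**Figure D2:**
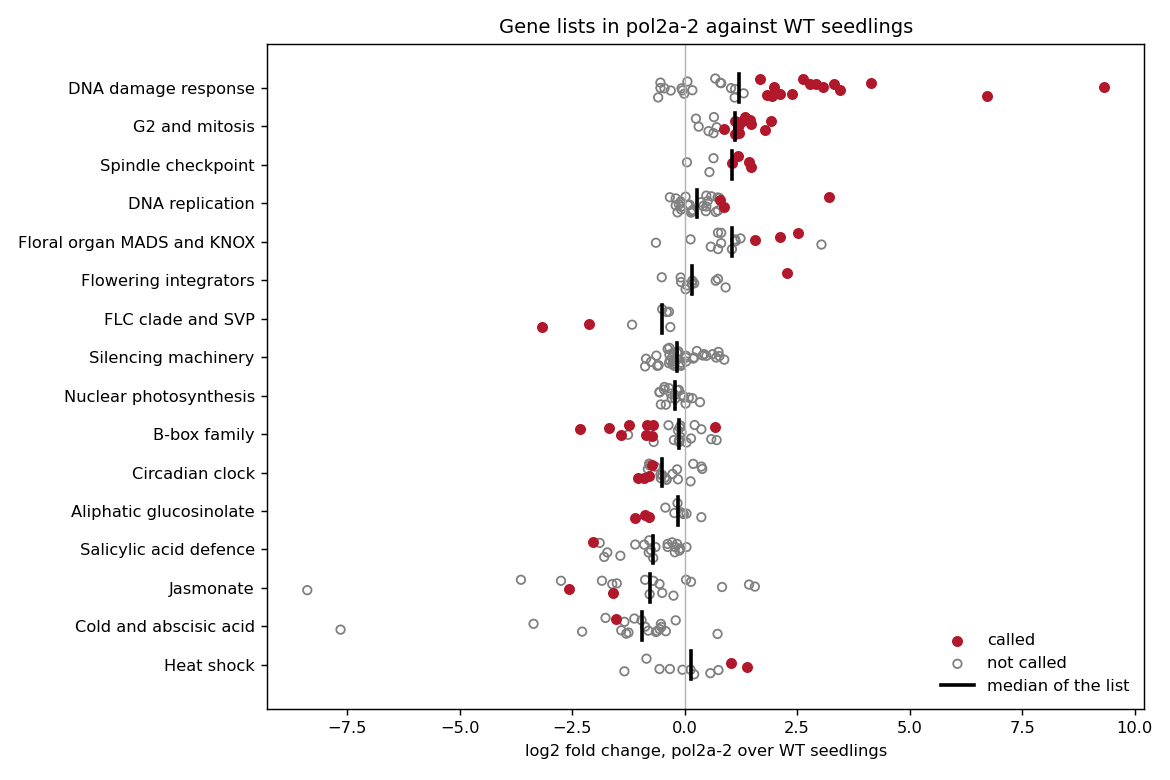
Log2 fold change of pol2a-2 over WT seedlings for each tested member of the gene lists drawn, which are not all lists, 1 point per gene. Called genes are filled, and vertical scatter within a list is only for legibility. The points of the DNA damage response and of G2 and mitosis lie mostly above 0, with medians of 1.21 and 1.12, and points beyond 7 or -7 belong to genes with 0 counts in 1 group, whose fitted value depends on the prior count.

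Flowering genes showed a small set of changes. FLC, the repressor of flowering that cold silences, stood at 0.478 and 0.635 CPM in pol2a-2 seedlings, against 5.40 and 4.29 CPM in WT seedlings (log2 fold change -3.17 ± 0.43, adjusted p = 0.00664, edgeR). Over its exons, 68.1% of the bases overlap another annotated gene, so the reads of both strands are mixed. MAF4, a relative of FLC, stood at 1.02 and 1.40 CPM in pol2a-2 seedlings, against 5.25 and 4.88 CPM in WT seedlings (-2.13 ± 0.38, adjusted p = 0.0232). Both pol2a-2 libraries lay below both WT libraries in each. All 7 members of the FLC clade and SVP had a negative log2 fold change, 2 of them called against 0.939% of all genes called lower, and the median was -0.50.

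FT, the mobile signal that starts flowering and a target of FLC, stood at 1.02 and 2.58 CPM in pol2a-2 seedlings, against 0.406 and 0.298 CPM in WT seedlings (2.28 ± 0.49, adjusted p = 0.0432, edgeR). It was the 1 member called of 12 tested flowering integrators, against 1.76% of all genes called higher. SOC1, another FLC target, stood at 60.3 and 65.4 CPM in pol2a-2 seedlings and 56.7 and 60.3 CPM in WT seedlings. Without WT replicate 1 none of FLC, MAF4 and FT remained called. Without WT replicate 2, and likewise without pol2a-2 replicate 1, FLC remained called and MAF4 did not. The call of FT was also lost without WT replicate 2 (adjusted p = 0.189) and without pol2a-2 replicate 2 (adjusted p = 0.0869).

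Of 15 genes on the list of floral organ MADS and KNOX genes 3 rose in pol2a-2 seedlings and 0 fell. Over all genes 1.76% were called higher. The list joins MADS-box genes of floral organs with the KNOX homeobox genes STM, KNAT1, KNAT2 and KNAT6. SEP3, a MADS-box factor needed for petals, stamens and carpels, stood at 10.6 and 14.9 CPM in pol2a-2 seedlings, against 1.57 and 2.65 CPM in WT seedlings (log2 fold change 2.52 ± 0.28, adjusted p = 0.00276, edgeR). SEP1 and SEP2, which overlap with it in function, rose with log2 fold changes of 1.56 and 2.12, and 35.8% of the exon bases of SEP1 overlap another gene. Of the 15 members 14 had a positive log2 fold change, with a median of 1.05. AP1 and AG, which specify sepals and reproductive organs, stood at 1.05 ± 0.51 (adjusted p = 0.268) and 1.12 ± 0.34 (adjusted p = 0.114) on this scale. Of the 3 calls, SEP3 alone remained without either WT library.

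Markers of flowers, pollen and meiosis were counted as a check on what the seedlings held. Their summed level was 46.3 and 48.1 CPM in pol2a-2 seedlings, against 19.3 and 18.5 CPM in WT seedlings. Of 12 tested members 1 was called higher, against 1.76% of all genes. That member was DMC1, the meiosis-specific recombinase, at 37.0 and 31.7 CPM in pol2a-2 seedlings, against 7.66 and 8.09 CPM in WT seedlings (2.05 ± 0.16, adjusted p = 0.000517, edgeR). DMC1 made up most of the sum in both pol2a-2 libraries, and the sums of the other markers overlapped between the groups. Of the 12 tested members 10 had a positive log2 fold change, with a median of 0.73. Some defining markers were near 0: SPO11-1, which makes meiotic breaks, had 0.683 and 0.381 CPM in pol2a-2 seedlings and 0.290 and 0.634 CPM in WT seedlings. The tapetum gene MS1 had 0.137 and 0 CPM in pol2a-2 seedlings and 0 in both WT libraries. The part of flower buds in the floral gene results was not tested beyond these values. Of 13 root markers 5 were tested and 0 called by edgeR (0 at an unadjusted p under 0.05, 0 by DESeq2). Their sums were 138 and 92.0 CPM in pol2a-2 seedlings and 96.3 and 94.4 CPM in WT seedlings, and EXPA7, EXPA18 and PLT1 were at 0 in all 4 libraries.

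Among the 10 largest rises, NAC085, SMR7 and MRD1 belong to the lists. MRD1 (AT1G53480), from the list of genes silenced by DNA methylation, stood at 13 and 26.1 CPM in pol2a-2 seedlings, against 0.0871 and 0.373 CPM in WT seedlings (log2 fold change 6.39 ± 0.66, adjusted p = 0.00178, edgeR). Of its exon bases 89.8% overlap HEI10, a gene of meiotic crossover formation on the other strand. HEI10 stood at 14.4 and 29.9 CPM in pol2a-2 seedlings, against 1.34 and 1.23 CPM in WT seedlings (4.02 ± 0.45, adjusted p = 0.00269), and the reads of the pair cannot be told apart. MRD1 was the 1 called of 4 tested genes silenced by DNA methylation, against 1.76% of all genes called higher. It remained called without any 1 of the 4 libraries compared.

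The remaining large rises carried few or no counts in WT seedlings. AT2G18193, annotated by RefSeq as a nucleoside triphosphate hydrolase with a P-loop, stood at 84.0 and 72.1 CPM in pol2a-2 seedlings, against 0.900 and 0.895 CPM in WT seedlings (log2 fold change 6.36 ± 0.62, adjusted p = 0.00165, edgeR). AT4G22960 stood at 18.1 and 15.1 CPM in pol2a-2 seedlings, against 0.261 and 0.112 CPM in WT seedlings (6.30 ± 0.40, adjusted p = 0.000144). AT5G60250, annotated as a RING finger protein, stood at 39.1 and 55.8 CPM in pol2a-2 seedlings, against 1.45 and 0.746 CPM in WT seedlings (5.32 ± 0.36, adjusted p = 0.000212). All 3 were high in both pol2a-2 libraries and near 0 in both WT libraries.

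ABCG39, a transporter of the ABCG family, had 95 counts over the pol2a-2 libraries and 1 over the WT libraries, a ratio of 152 in CPM with a 95% counting interval of 26.7 to 6071. AT1G30170 had 0 counts in WT and was at least 67.3-fold higher in pol2a-2 seedlings. AT4G32510, annotated as a bicarbonate transporter family member, stood at 3.75 and 2.84 CPM in pol2a-2 seedlings, against 0 and 0.149 CPM in WT seedlings (5.42 ± 0.81, adjusted p = 0.0112, edgeR). AT1G75945 had 136 counts over the pol2a-2 libraries and 3 over the WT libraries, a ratio of 72.6 (24.3 to 356). Of the 10 largest rises 4 remained called without WT replicate 1 (MRD1, AT4G22960, AT1G75945 and AT5G60250), 7 without WT replicate 2 and all 10 without either pol2a-2 library.

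The largest falls began with a pair on chromosome 1. AT1G12010 (chr1:4056165-4057968, plus strand), annotated as an oxygenase, had 0 counts in both pol2a-2 libraries and 2.41 and 2.20 CPM in WT seedlings, at least 29.6-fold lower against a floor of 3 counts over the pol2a-2 group. AT1G11280 (chr1:3787318-3790935, minus strand), annotated as a lectin receptor kinase of the S-locus family, stood at 0.478 and 0.254 CPM in pol2a-2 seedlings, against 30.8 and 31.2 CPM in WT seedlings (log2 fold change -6.56 ± 0.30, adjusted p = 2.49e-05, edgeR). The pol2a-1 libraries, at 21.2 and 30.2 CPM, lay near WT for AT1G11280.

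The other falls were smaller. TDR1, an ethylene response factor, stood at 0.205 and 0.127 CPM in pol2a-2 seedlings, against 2.29 and 2.83 CPM in WT seedlings (-4.05 ± 0.65, adjusted p = 0.0143, edgeR). PORA, the protochlorophyllide reductase of greening seedlings, stood at 5.05 and 4.28 CPM in pol2a-2 seedlings, against 23.2 and 28.2 CPM in WT seedlings (-2.55 ± 0.28, adjusted p = 0.00237). AT2G15042, ABCG27 and LOX4 lay at -2.93, -2.61 and -2.58 on the log2 scale. AT4G22505 and AT4G22495, both at -2.87, lie on opposite strands of the same stretch and share over 90% of their exon bases, so they are 1 measurement. Of the 10 largest falls 3 remained called without WT replicate 1, 5 without WT replicate 2, 7 when pol2a-2 replicate 1 was left out and all 10 without its replicate 2.

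AT1G11280 and AT1G12010 lie 1.18 and 1.45 Mb (megabases) from POL2A. Within 1 Mb of POL2A 491 genes were tested, of which 16 rose and 8 fell, and from 1 to 2 Mb it was 470, of which 9 rose and 11 fell. Over this whole interval of 961 genes, 2.60% rose and 1.98% fell, against 1.73% and 0.894% of the other 19471 nuclear genes. A fall of at least 16-fold in the fit was found for 4 of the 961 genes and for 2 of the 19471. The 16-fold cut was not part of the planned rules. Beside AT1G11280 and AT1G12010 the genes near POL2A were AT1G10000 and AT1G06020, whose bounds, given next, do not reach 16-fold. AT1G10000, of the ribonuclease H-like family and 0.657 Mb from POL2A, had 0 counts in both pol2a-2 libraries and 0.551 and 1.23 CPM in WT seedlings (at least 10.8-fold lower). AT1G06020 had 0 counts in both pol2a-2 libraries and 0.406 and 0.373 CPM in WT seedlings (at least 5.0-fold lower). In meiocytes AT1G06020 was present in both groups, at 5.45 and 0.807 CPM in pol2a-2 and 1.78 and 3.06 CPM in WT. Its log2 fold change there was 0.25 ± 0.74 and it was not called. A difference of the mutant line from WT in DNA sequence around POL2A and an effect of the mutation cannot be told apart here.

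Among the 16 rises within 1 Mb of POL2A were SMR5, PCNA1 and KN of the lists, and POLD4, a small subunit of DNA polymerase delta. POLD4 stood at 47.9 and 41.7 CPM in pol2a-2 seedlings, against 17.3 and 15.3 CPM in WT seedlings (log2 fold change 1.38 ± 0.16, adjusted p = 0.00282, edgeR). G6PD4, of the glucose-6-phosphate dehydrogenase family, stood at 30.9 and 58.1 CPM in pol2a-2 seedlings and 8.56 and 6.0 CPM in WT seedlings (2.52 ± 0.27, adjusted p = 0.00218). APX1, a cytosolic ascorbate peroxidase, stood at 769 and 640 CPM in pol2a-2 seedlings and 397 and 390 CPM in WT seedlings (0.77 ± 0.13, adjusted p = 0.0217). Of the 24 calls within 1 Mb, 3 remained without WT replicate 1, 8 without WT replicate 2, 17 when pol2a-2 replicate 1 was left out and 23 without its replicate 2.

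**Figure D3:**
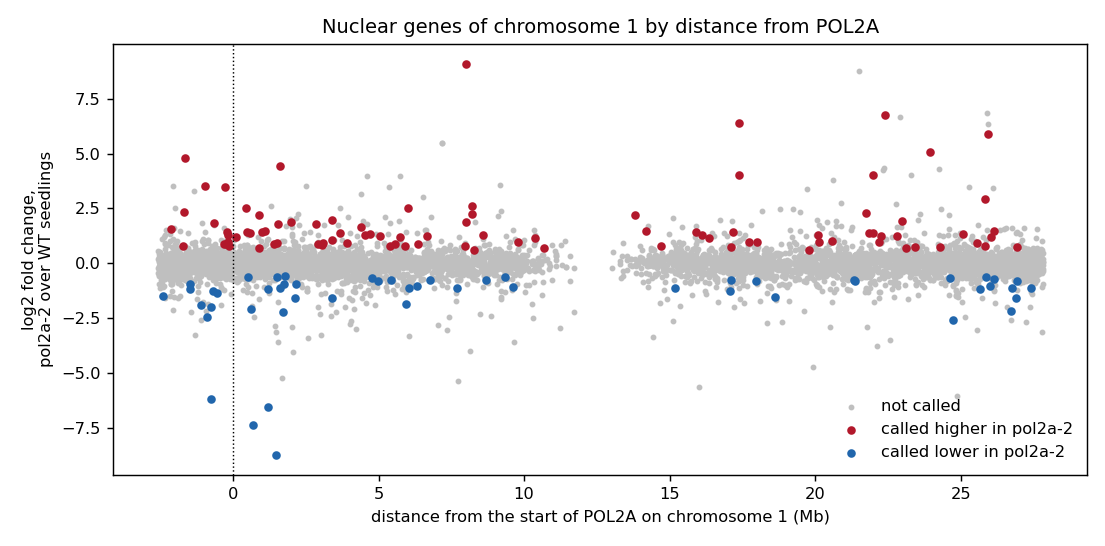
Log2 fold change of pol2a-2 over WT seedlings for tested genes of chromosome 1, plotted by distance from the start of POL2A in Mb, with called genes coloured by direction. The 4 lowest points near POL2A are AT1G12010, AT1G10000, AT1G11280 and AT1G06020, of which 3 have 0 counts in both pol2a-2 libraries.

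Genes that respond to light, time of day and stress fell in small numbers. Of 21 tested clock genes 4 fell, PRR9, CCA1, RVE8 and RVE1, and 0 rose, against 0.939% of all genes called lower. CCA1, a morning repressor of the clock, stood at 78.3 and 110 CPM in pol2a-2 seedlings, against 165 and 145 CPM in WT seedlings (log2 fold change -0.80 ± 0.16, adjusted p = 0.0325, edgeR). TOC1, an evening gene, stood at 0.37 ± 0.15 (adjusted p = 0.188) and did not pass the test. In the B-box family, a list added after values had been seen, 8 of 27 fell and BBX14 rose. Of all genes 0.939% were called lower and 1.76% higher. BBX32 stood at 2.25 and 2.88 CPM in pol2a-2 seedlings and at 13.3 and 11.3 CPM in WT seedlings (-2.33 ± 0.27, adjusted p = 0.00307). The sources used here do not give the hour of harvest. Without WT replicate 1 none of these 4 clock and 9 B-box calls remained, and without WT replicate 2 there were 1 and 2.

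In the stress lists the medians were below 0, with 1 or 2 calls in each. The median log2 fold change was -0.96 over 21 cold and abscisic acid genes, -0.78 over 19 jasmonate genes and -0.70 over 21 genes of salicylic acid defence, with 1, 2 and 1 members called lower, against 0.939% of all genes. In the same order the medians were -1.03, -0.51 and -0.20 without WT replicate 1. For pol2a-1 over WT they were -0.51, -0.70 and -0.72. The salicylic acid genes differed between the WT replicates, with sums of 383 and 244 CPM, against 204 and 229 CPM in pol2a-2 seedlings. Of the cold and abscisic acid genes 16 were lower and 0 higher at an unadjusted p under 0.05, and DESeq2 called 5. In the fit of the 6 WT, pol2a-1 and pol2a-2 libraries 7 cold and abscisic acid genes and 6 jasmonate genes were called lower. GOLS2, which makes the osmoprotectant galactinol, stood at 2.94 and 3.22 CPM in pol2a-2 seedlings, against 8.91 and 7.90 CPM in WT seedlings (-1.53 ± 0.30, adjusted p = 0.0325, edgeR). LOX4, a lipoxygenase of jasmonate synthesis, stood at 2.46 and 6.14 CPM in pol2a-2 seedlings, against 26.7 and 23.0 CPM in WT seedlings (-2.58 ± 0.53, adjusted p = 0.0367), and LOX3 lay at -1.60. CBP60G, a regulator of salicylic acid synthesis, stood at 3.75 and 5.42 CPM in pol2a-2 seedlings and 21.1 and 14.8 CPM in WT seedlings (-2.04 ± 0.45, adjusted p = 0.0486). PR1, the marker gene of that defence, varied within WT, at 4.71 and 2.41 CPM in pol2a-2 seedlings and 17.3 and 5.74 CPM in WT seedlings. The calls of GOLS2, LOX3, LOX4 and CBP60G were lost without WT replicate 1, without WT replicate 2 and without pol2a-2 replicate 1, although PR2 was called lower in the second of these fits and KIN2 in the last.

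Myrosinases, which break glucosinolates down to defence compounds, fell. TGG2 stood at 692 and 782 CPM in pol2a-2 seedlings, against 1549 and 1436 CPM in WT seedlings (log2 fold change -1.10 ± 0.14, adjusted p = 0.00429, edgeR), and TGG1 at 1346 and 1245 CPM, against 2200 and 2352 CPM (-0.89 ± 0.14, adjusted p = 0.0140). Both lay below WT in each library. With ESM1 they were 3 of 11 members of the glucosinolate list called lower, against 0.939% of all genes. The biosynthetic genes MYB28, CYP79F1 and MAM1 lay at -0.08, -0.23 and -0.02 and did not pass the test. The cytosolic chaperones HSP70-4 and HSP90.1 rose with log2 fold changes of 1.38 and 1.03. They were 2 of 11 tested heat shock genes, against 1.76% of all genes called higher. Without WT replicate 1 none of these 5 calls remained, and without WT replicate 2 there was 1.

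Photosynthesis and silencing genes gave 0 calls with all 10 libraries in the fit. The 19 nuclear photosynthesis genes summed to 101284 and 89387 CPM in pol2a-2 seedlings and to 111221 and 109506 CPM in WT seedlings, with a median log2 fold change of -0.22. None was called by edgeR or DESeq2, and 4 had an unadjusted p under 0.05 on the lower side. Of 37 genes of the silencing machinery 0 were called by edgeR, while 5 were higher and 2 were lower at an unadjusted p under 0.05 and 1 was higher by DESeq2. The median of the silencing list moved to -0.63 without pol2a-2 replicate 2 and to 0.22 without its replicate 1, and members were called in both fits. The first of these fits keeps only replicate 1, in which long genes as a class had low levels, described further on. With the length offset the silencing median was 0.02 and 3 members were called higher. The photosynthesis median was -0.09 without pol2a-2 replicate 2, -0.34 without its replicate 1 and -0.32 with the length offset. That list also gave calls in these fits, 2 of them lower with the length offset. SUVH2 stood at 8.40 and 10.3 CPM in pol2a-2 seedlings, against 7.95 and 10.8 CPM in WT seedlings, and SUVH9 at 39.1 and 37.6 CPM, against 33.8 and 29.8 CPM. CMT3 and DDM1, a chromomethylase and a chromatin remodeller, had the smallest p of this list, with log2 fold changes of 0.77 ± 0.23 (adjusted p = 0.106) and 0.70 ± 0.21 (adjusted p = 0.112).

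Another 5 lists gave 0 calls or 1. Of 6 leaf senescence genes 0 were called by edgeR (2 lower at an unadjusted p under 0.05, 1 lower by DESeq2), and of 10 anthocyanin genes 0 (1 lower at an unadjusted p under 0.05, 0 by DESeq2). Of 6 subunits of Polycomb repressive complex 2 and of 5 histone H3.1 genes 0 were called by edgeR or DESeq2, with 1 of each higher at an unadjusted p under 0.05. Of 10 recombination mediators 1 rose, against 1.76% of all genes. This was AHP2, the partner protein of MND1, at 9.08 and 9.44 CPM in pol2a-2 seedlings, against 2.44 and 2.27 CPM in WT seedlings (1.89 ± 0.22, adjusted p = 0.00301, edgeR). The last 3 lists were added after values had been seen.

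Of 353 tested genes of repeated sequence 9 rose (2.55%) and 6 fell (1.7%), against 1.76% and 0.939% of all genes. VIM2, a methylcytosine-binding protein with near-identical copies next to it, stood at 3.69 and 5.17 CPM in pol2a-2 seedlings, against 1.25 and 1.98 CPM in WT seedlings (log2 fold change 1.39 ± 0.30, adjusted p = 0.0414, edgeR). How reads were shared out among its copies is not given, so its value is uncertain. AT1G12340, AT1G65710 and VIM2 were the 3 largest rises of this class whose mean level reached 1 CPM, and AT5G28340, AT2G46670 and PRR9 the 3 largest falls. Of these 6 calls 1 remained without WT replicate 1 and 0 without WT replicate 2.

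Transposable elements (TEs) changed in both directions. Of 1748 tested, 15 rose (0.858%) and 16 fell (0.915%) in pol2a-2 seedlings. Their share of all counts was 0.850% and 1.01% in pol2a-2 seedlings and 0.944% and 0.943% in WT seedlings, so that the groups overlapped. AT5TE50260, a long element of 5256 bases, stood at 1.57 and 4.40 CPM in pol2a-2 seedlings with 0 counts in WT, at least 67.8-fold higher. AT1TE93275 had 115 counts over the pol2a-2 libraries and 1 over the WT libraries, a ratio of 184 with a 95% counting interval of 32.4 to 7336. AT2TE15880, of 8957 bases, had 110 and 2 counts, a ratio of 88.1 (23.8 to 736).

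On the lower side, AT1TE06650 stood at 0.0683 and 0.0423 CPM in pol2a-2 seedlings, against 9.55 and 7.68 CPM in WT seedlings (adjusted p = 4.33e-05, edgeR). AT1TE10830 stood at 0.0683 and 0 CPM in pol2a-2 seedlings, against 4.73 and 5.22 CPM in WT seedlings, and AT1TE06655 at 0.0683 and 0 CPM, against 4.01 and 4.62 CPM. All 3 were near 0 in both pol2a-2 libraries. Positions and families of the elements were not used here. Without WT replicate 1 there were 2 rises and 4 falls, without WT replicate 2 there were 3 and 6, and without pol2a-2 replicate 2 there were 51 and 132.

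By length, the tested TEs of at least 4000 bases had a higher median than those of the shorter classes. Of 1082 TEs of this length 143 passed the count filter, which used all 10 seedling libraries. An element with 0 counts in WT can pass it only through other genotypes. AT1TE49850, AT5TE41865 and AT5TE50260, among the rises, had 0 counts in WT. The median and calls thus hold for the tested elements and not for the whole length class. The 143 tested had a median log2 fold change of 0.80, with 7 higher (4.90%) and 1 lower (0.699%). Without pol2a-2 replicate 1 the median was 0.95 with 3 higher and 0 lower, and without replicate 2 it was 0.34 with 12 higher and 9 lower. With the length offset it was 1.3. The share of counts on all TEs of this length was 0.0330% and 0.0511% in pol2a-2 seedlings and 0.0425% and 0.0376% in WT seedlings, so that the groups overlapped. The shorter classes had medians of -0.26 to -0.08. Against the WT mean, the median of the long class was 0.29 in pol2a-2 replicate 1 and 0.54 in replicate 2, and 0.02 and -0.02 in the WT libraries. The pol2a-1 libraries stood at 0.21 and -0.21.

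Among genes the longest class had the lowest median. The median log2 fold change was -0.07 for 389 nuclear genes under 500 bases, 0.15 for 2507 from 500 to under 1000 bases, 0.06 for 9679 from 1000 to under 2000 bases, -0.12 for 6983 from 2000 to under 4000 bases and -0.43 for 874 of at least 4000 bases. Of the shortest to the longest class 3, 53, 218, 84 and 3 genes rose and 4, 9, 81, 93 and 6 fell. The trend rested on replicate 1 of pol2a-2. For genes of at least 4000 bases the median difference from the WT mean was -0.95 in pol2a-2 replicate 1 and -0.05 in replicate 2, against 0.03 and -0.03 in the WT libraries. These genes took 2.77% and 5.59% of all counts in pol2a-2 seedlings and 5.45% and 5.28% in WT seedlings. The pol2a-1 libraries stood at -0.36 and -0.72 for this class.

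Without pol2a-2 replicate 1 the median of the longest class was -0.04, and without replicate 2 it was -0.95. Taking out each library's trend with length gave -0.04, with 614 genes higher and 362 lower. Of the 554 calls, 525 remained called in that fit. POL2A, ATM and RAD50 belong to the longest class, where the pol2a-2 replicates differ in this way. POL2A stood at a log2 fold change of 0.67 after that correction.

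**Figure D4:**
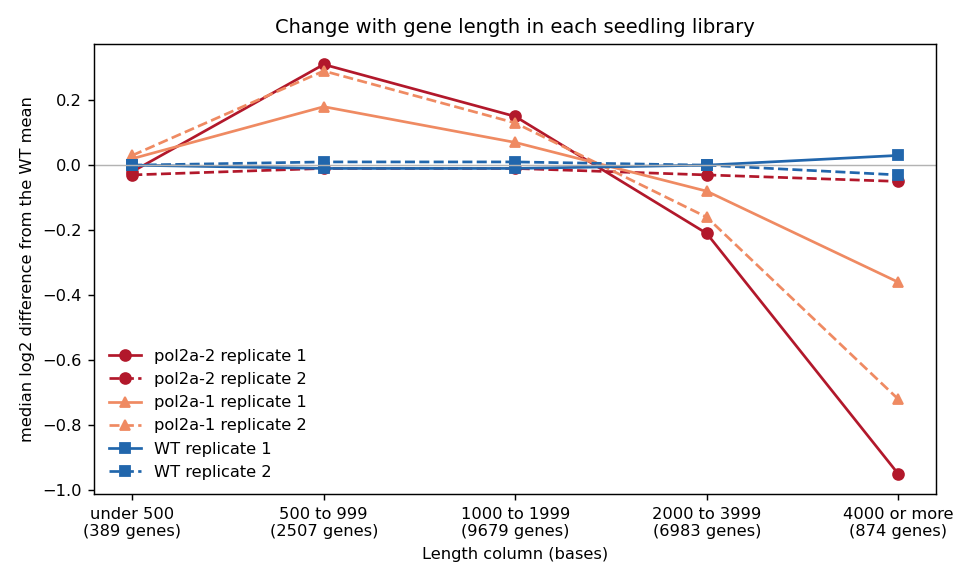
Median difference from the WT mean (log2) by gene length class for each of the 2 pol2a-2, 2 pol2a-1 and 2 WT seedling libraries, 1 line per library. Replicate 1 of pol2a-2 drops to -0.95 for genes of at least 4000 bases, replicate 2 stays at -0.05, and the WT libraries stay between -0.03 and 0.03.

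The allele pol2a-1 was sequenced in the same tissue, and its comparison shares the WT libraries with that of pol2a-2, so the values are given side by side. Against WT, 3 genes were called higher (0.0146%) and 1 lower (0.00487%) in pol2a-1 seedlings. The 361 genes that rose in pol2a-2 seedlings had a median log2 fold change of 1.13 there and of 0.44 in pol2a-1 seedlings, and the 193 that fell had -1.0 and -0.40. These genes were chosen by their difference in pol2a-2 from the shared WT libraries. This choice by itself favours large values in pol2a-2 and the same sign in pol2a-1. For the DNA damage response list the medians were 1.21 and 0.14, and for G2 and mitosis 1.12 and 0.24. AT1G75945 and the TEs AT5TE50260 and AT1TE93275 were called higher in both, and AT3G14200 was called lower in both. AT1G75945 and AT1TE93275 had the same CPM in each of the 4 meiocyte libraries and similar CPM in seedlings, so they may be 1 measurement.

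Tested directly against each other, 52 genes were higher (0.253%) and 30 lower (0.146%) in pol2a-2 than in pol2a-1 seedlings. Of the 32 DNA damage response genes 9 passed this test, all higher in pol2a-2. XRI1 stood at 61.8 and 61.4 CPM in pol2a-2 seedlings and at 13.5 and 11.6 CPM in pol2a-1 seedlings (2.19 ± 0.15, adjusted p = 0.000317, edgeR). TSO2 stood at 439 and 392 CPM in pol2a-2 seedlings and at 103 and 64.0 CPM in pol2a-1 seedlings (2.22 ± 0.21, adjusted p = 0.00284). SMR7 differed between the pol2a-1 replicates, at 3.51 and 0.0840 CPM, and its log2 difference of 3.43 ± 0.68 did not pass the test (adjusted p = 0.0804). With pol2a-1 replicate 1 left out 26 features differed, with replicate 2 left out 12, and with pol2a-2 replicate 1 left out 917, against 86 in all.

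**Figure D5:**
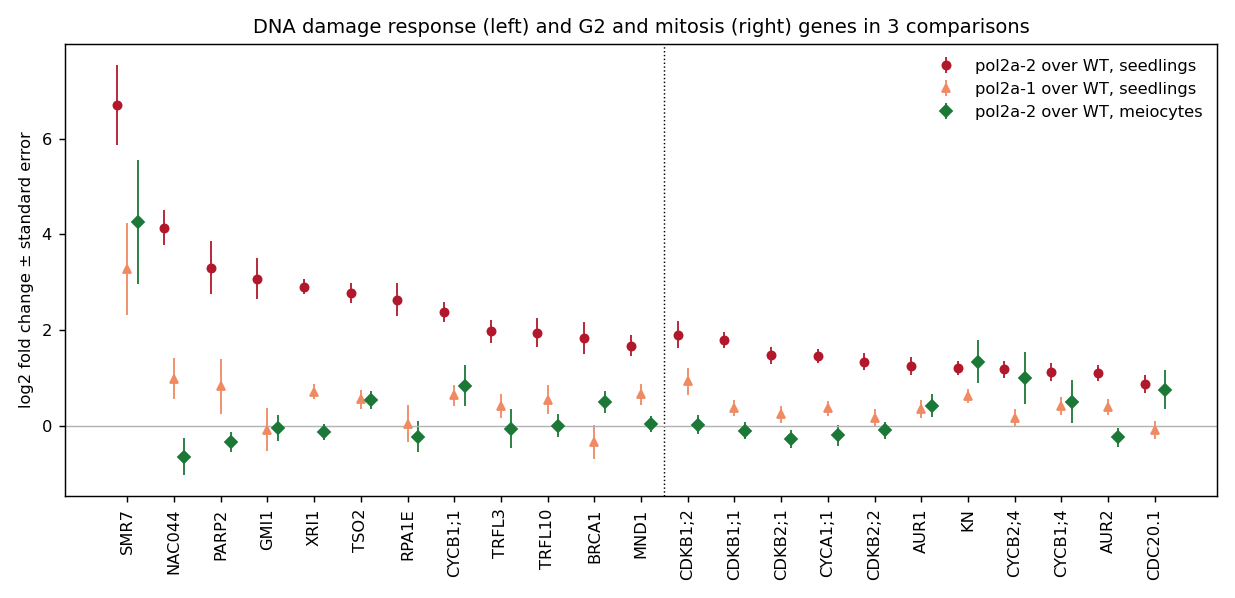
Log2 fold change over WT of pol2a-2 seedlings, pol2a-1 seedlings and pol2a-2 meiocytes, with bars for the standard error. Genes are members of the DNA damage response and of the G2 and mitosis lists that rose in pol2a-2 seedlings and were tested in meiocytes. This choice by itself favours high values in pol2a-2 seedlings. XRI1 is at 2.91 in pol2a-2 seedlings and at -0.12 in pol2a-2 meiocytes, while SMR7 is at 6.71 in pol2a-2 seedlings and, not called, at 4.26 in pol2a-2 meiocytes; the 2 seedling comparisons share the WT libraries.

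In meiocytes, which have their own WT libraries, 114 genes were called higher (0.578%) and 14 lower (0.0709%) in pol2a-2. Of the 361 genes that rose in seedlings 341 were tested there, and 205 of these (60.1%) had a positive log2 fold change, against 51.7% of all genes tested in both. Of the 193 that fell 143 were tested, and 56 (39.2%) were negative, against 48.3%. Genes called in the same direction in both tissues were AT1G07660 and VIM4 on the higher side, 2 of 361 in seedlings and 2 of 114 in meiocytes. On the lower side they were AT1G10000 and AT1G11280, 2 of 193 and 2 of 14.

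AT1G07660, of the histone superfamily, stood at 41.8 and 39.6 CPM in pol2a-2 seedlings and at 14 and 14.5 CPM in WT seedlings. In meiocytes it stood at 230 and 234 CPM in pol2a-2, against 81.6 and 71.4 CPM in WT. AT1G10000 had 0 counts in all 4 pol2a-2 libraries of both tissues, and 6.11 and 3.72 CPM in WT meiocytes. AT1G11280 had 0 counts in both pol2a-2 meiocyte libraries and 2.13 and 1.81 CPM in WT meiocytes. All 3 genes lie within 2 Mb of POL2A, as does PAI1, an enzyme of tryptophan synthesis that rose in seedlings and fell in meiocytes. VIM4, called higher in both tissues, lies far from POL2A, at chr1:24583740-24586760. Its log2 fold change was 4.0 in seedlings and 4.16 in meiocytes. Of its exon windows 58.3% occur more than once in the genome, so reads may belong to its copies.

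Of the 30 DNA damage response genes tested in meiocytes 0 were called there by edgeR (2 were higher and 4 were lower at an unadjusted p under 0.05), and their median log2 fold change was -0.13. The tissue difference, the seedling effect minus the meiocyte effect in a fit of all 20 libraries, passed the test for 9 members of the list. It was 2.97 for XRI1 (adjusted p = 9.41e-06, edgeR), whose meiocyte level was 127 and 117 CPM in pol2a-2 and 122 and 129 CPM in WT. It was 4.72 for NAC044 (adjusted p = 0.000743), at 4.78 and 8.66 CPM in pol2a-2 meiocytes and 11.7 and 8.40 CPM in WT meiocytes. Both genes thus had higher levels in WT meiocytes than in WT seedlings. Over all genes the tissue difference was called higher for 72 (0.323%) and lower for 168 (0.753%).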

How the data were processed

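Polyadenylated RNA was sequenced with version 2 of the TruSeq RNA kit, which does not record the strand, per the labels' protocols. What the authors deposited are unnormalised counts for each gene or transposable element. The submitters' processing notes name the build TAIR10, DESeq2 1.30.1, the trimmer cutadapt 3.4, the counter featureCounts 2.0.0 and the aligner STAR 2.7.9a. The sources used here do not say how reads with several hits, or in overlapping genes, were counted. Each file lists 58844 features, of which 31189 are transposable elements. Samples were grouped by title. In the DNA damage response list 1 member is counted but not reported here.

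The 10 seedling libraries (5 genotypes, 2 each) entered 1 fit with edgeR 4.0.16 (R 4.3.3, limma 3.58.1), after filterByExpr (minimum count 10) and TMM scaling. Groups were compared with the two-sided quasi-likelihood F test and Benjamini-Hochberg adjustment over all features, at an adjusted p of 0.05. The spread is thus shared with the other genotypes, since an exact permutation test of 2 against 2 libraries cannot give a p below 0.333. Where a group had 0 counts, a fold is a bound against 3 counts over the group. For 1 to 3 counts the ratio stands beside its exact 95% counting interval. Such bounds and intervals cover counting error only. Exon overlap, repeats (a gene counts as repeated from 10% of its 100-base windows) and motif matches were computed on TAIR10.1, whose locus names matched all 27445 nuclear genes.

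The members, gene lists, named-gene rule and alternatives were chosen with earlier results of these data known. The rule named POL2A, the 10 largest rises and falls with a mean of at least 1 CPM, 3 per direction of repeated genes and of transposable elements, up to 4 members per list, and calls within 1 Mb of POL2A. HEI10, other list members and 6 lists were added after values had been seen. In simulated counts of this comparison (21445 features) the fit recovered 46% of 2-fold and 92% of 4-fold changes, and 8.61% of its calls fell on unchanged features.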

Additional observations from a re-analysis of the deposited data

Results flagged for a closer look

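The effect of pol2a-2 differed between seedlings and meiocytes for 18 of the 93 features that the named-gene rule gave. With all 20 libraries fitted together, edgeR's quasi-likelihood test asked whether the pol2a-2 effect depends on tissue (Benjamini-Hochberg adjusted p under 0.05). Of the 93 features 82 had been called in seedlings, and this choice by itself favours a difference between the tissues. For comparison, 0.323% of all genes tested were called higher and 0.753% lower for this difference. Values are the seedling log2 fold change minus that of meiocytes. In the DNA damage response the difference was 11.32 for NAC085, whose size depends on the prior count since WT seedlings had 0 counts, 4.72 for NAC044, 2.97 for XRI1 and 2.17 for TSO2. In the cell cycle and replication lists it was 2.14 for TK1a, 1.84 for CDKB1;1, 1.68 for CDKB2;1 and 1.60 for CYCA1;1, and for the recombinase DMC1 it was 1.98.

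Among the largest rises, AT4G22960 gave 6.27, AT2G18193 gave 5.44, AT5G60250 gave 5.37 and AT4G32510 gave 4.74. AT4G22960 stood at 560 and 410 CPM in pol2a-2 meiocytes and at 457 and 485 CPM in WT meiocytes, and AT4G32510 at 137 and 124 CPM in pol2a-2 meiocytes and 93.2 and 68.0 CPM in WT meiocytes. Both are thus genes at a high level in meiocytes that were near 0 in WT seedlings. Near POL2A, the difference was 3.22 for PAI1, 2.67 for G6PD4 and -2.05 for AT1G09910. PAI1 stood at 17.9 and 23.3 CPM in pol2a-2 seedlings and 8.74 and 11.1 CPM in WT seedlings, and at 2.1 and 1.98 CPM in pol2a-2 meiocytes and 7.71 and 11.2 CPM in WT meiocytes. Of its exon windows 46.2% occur more than once in the genome, so reads may belong to its copies. For PORA, at 0.838 and 0.147 CPM in pol2a-2 meiocytes and 0 and 0.0955 CPM in WT meiocytes, the difference of -5.53 rests in part on few counts. For the photosystem I subunit PSAF it was -1.45.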

How the results depend on the processing

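Against 361 genes higher and 193 lower, the counts were 588 and 422 by DESeq2's Wald test, 107 and 25 with all 20 libraries in the fit, 614 and 362 with a length offset, 1003 and 1571 without the filter on low counts, 70 and 55 with only the 4 libraries compared, 1 and 3 with pol2a-1 and pol2a-2 joined, and 219 and 97 at 2-fold or more. With only the 6 WT, pol2a-1 and pol2a-2 libraries, chosen after seeing their chloroplast share, there were 179 higher. Leaving out 1 library gave 31 to 1691 higher and 7 to 2302 lower. Under these settings transposable elements gave 35 higher and 32 lower by DESeq2, 2 and 5 with 20 libraries, 30 higher with the length offset, 71 and 89 without the filter, 2 and 6 with 4 libraries, 8 and 10 with 6, 2 and 0 joined, and 2 to 51 and 4 to 132 with 1 library left out. Pairing by replicate number was not borne out by the data (r = -0.013 between deviations of same-numbered pol2a-2 and WT libraries). With a replicate block there were 226 genes higher and 99 lower, 7 elements higher, 1 replication gene and 45 features differing between the alleles.

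The DNA damage response gave 0 calls with the alleles joined and 4 to 16 with 1 library left out. G2 and mitosis gave 7 with 20 libraries, 4 with 4, 0 joined and 1 to 13 with 1 left out. Replication gave 1 with 20, 4 or 6 libraries, 6 with the length offset, 7 without the filter, 0 joined and 1 to 6. The floral organ MADS and KNOX list gave 6 without the filter, 1 with 4 libraries, 0 joined and 1 to 3. The FLC clade gave 0 with 20 libraries, 0 joined and 0 to 4. Features differing between pol2a-2 and pol2a-1 numbered 168 with the length offset, 9 with 4 libraries, 31 with 6 and 12 to 917 with 1 left out, against 86. Those with a tissue difference numbered 1215 without the filter, against 248. POL2A turned to a log2 fold change of -0.02 with 20 libraries and -0.23 joined, and lay between -0.55 and 0.47 with 1 library left out. SEN1, a senescence gene at -1.70, turned to 0.17 joined. The cause of these moves was not tested. Other settings (DESeq2 size factors, organellar or repeated genes left out) moved none of these counts by over 1.5 times. With 2 libraries per group, 2-fold changes are missed more often than 4-fold changes, and the families and positions of transposable elements were not analysed.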
